A study of Mus musculus with 7 samples.

Results

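The donor-derived myeloid cells of the epidermis came from 4 libraries whose short names fall into pairs, DM1 and DM2 (the DM pair) and DMBMT and DMBMTT (the DMBMT pair). The pairs were compared within the 3 clusters annotated by the authors, Mono, Mrc1_Mac and Res_mLC, that had at least 20 cells in every library. These clusters held 5712 of the 11899 donor cells and of the 18106 cells in the series, with 754 cells in DM1, 4324 in DM2, 178 in DMBMT and 456 in DMBMTT. The cells were CD11b+MHCII+ and were sorted from epidermis 3 weeks after bone marrow transplantation (BMT) with marrow of female CD45.1 C57BL/6 donors, which was given to male C57BL/6 recipients (CD45.2) after lethal irradiation. DM1, DM2 and DMBMT carry the treatment label BMT, and DMBMTT carries the label BMT with T cells added (BMT + T cells). The series design instead states that the recipients were given CD4 T cells and CD8 Matahari (Mh) T cells, so the labels and the design differ on what the BMT libraries received. In this model, Mh T cells recognise a male antigen of the host. The study states that 2 independent sorting and sequencing experiments with pooled mice were combined, without naming their libraries. It also describes keratinocytes and CD11b+MHCII+ cells taken from shared epidermal samples, whose data were merged with an earlier myeloid dataset. The keratinocyte libraries of the series, KCBMT and KCBMTT, share name endings with DMBMT and DMBMTT. The pairs may be these experiments, which no label states. Pair, experiment, mouse pool and sequencing run cannot be told apart, and all differences below are differences between library pairs and not effects of a treatment.

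Mono were named for classical monocytes, which enter inflamed skin from blood. Mrc1_Mac were named for macrophages bearing the mannose receptor Mrc1, and Res_mLC for resident monocyte-derived Langerhans cells, which replace the embryonic Langerhans cell network of the epidermis when it has been destroyed. T cells in inflamed skin secrete interferon-γ, which acts on myeloid cells through the kinases Jak1 and Jak2. Its known targets include guanylate-binding proteins (Gbp genes), which act against intracellular microbes, the T cell chemoattractant Cxcl9, the major histocompatibility complex (MHC) class I presentation machinery and the feedback inhibitor Socs1.

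The 12 library and cluster profiles held 45 to 2602 cells. Median depth was 4845.5 to 18027 UMIs (unique molecular identifiers, 1 per captured transcript) per cell in 11 of them and 2214 UMIs in the Mrc1_Mac cells of DMBMT. Of those 45 cells, 48.9% had under 2000 UMIs. The smallest and largest numbers of cell barcodes shared by 2 of the 4 libraries were 0 and 5. The 5 markers of each cluster were highest in their own cluster in all libraries except that Ccl24 in DM1 and Mrc1 in DMBMTT were not highest in Mrc1_Mac and Chil3 in DMBMTT was not highest in Mono. Mrc1 stood at 7.95 UMIs per 10000 (CP10K) in the Mono cells of DMBMTT and at 3.33 CP10K in its Mrc1_Mac cells, so that the 2 clusters were less distinct by this marker in that library. Transcripts of 4 Y-linked genes, which female donor cells should lack, were found in 7 of 51 Res_mLC cells of DMBMT (13.7%, exact 95% interval 5.7 to 26.3%). Their mean level there, 0.685 CP10K, was 20.4% of that in the host library. In DMBMTT, 6 of 320 Res_mLC cells (1.88%, 0.691 to 4.04%) held such a transcript, in DM2 8 of 1175 (0.681%, 0.294 to 1.34%), and none of 105 in DM1, which allows up to 3.45%. None was found in 938 Mono cells, which allows a share of up to 0.32% when 3 counts are taken as the limit, unlike the exact intervals. In Mrc1_Mac 2 of 403 cells in DM1 and 14 of 2602 in DM2 held such a transcript. None did of 45 in DMBMT and of 73 in DMBMTT. The intervals cover counting error only. Results for Res_mLC are therefore also given without cells that had a Y-linked UMI.

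Libraries of a pair were closer to each other than to libraries of the other pair in Mono and in Res_mLC, and not in Mrc1_Mac. Among 1494 genes expressed at 1 CP10K or more in Mono, 3.48% differed over 2-fold between DM1 and DM2 and 3.75% between DMBMT and DMBMTT when equal numbers of cells were drawn. Between libraries of different pairs, this share was 14.1 to 17.8%. In Res_mLC, the 2 shares within a pair were 3.38% and 3.57% of 1539 genes, and the 4 between pairs were 6.17 to 11.2%. In Mrc1_Mac, 9.84% of 1514 genes differed between DM1 and DM2 and 16.3% between DMBMT and DMBMTT, and 9.31 to 21.4% differed between pairs, so that the ranges overlapped. DMBMT and DMBMTT differ in the treatment label and DM1 and DM2 share it, and these shares were not tested.

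**Figure D1:**
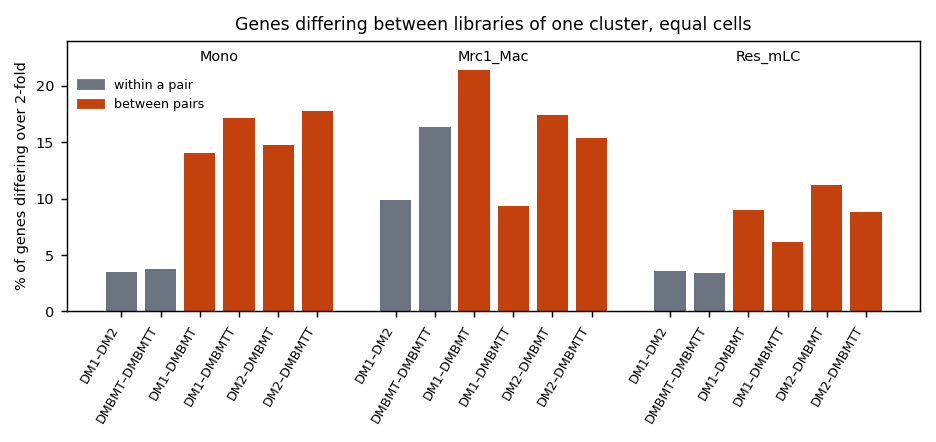
Percentage of genes (y axis) that differed over 2-fold between 2 libraries of a cluster, for each of the 6 pairs of libraries (x axis), in Mono, Mrc1_Mac and Res_mLC, with equal numbers of cells per library. Grey bars compare libraries within a pair and orange bars libraries of different pairs: in Mono the grey bars stand at 3.48 and 3.75% and the orange bars at 14.1 to 17.8%, whereas in Mrc1_Mac grey and orange bars overlap.

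To find genes that differed between the pairs on average over the cell types, each gene's log2 level was averaged over the 3 clusters with equal weights. A call on this mean does not require that the pairs differ in each cluster. Levels are mean CP10K per library and cluster, differences are on the log2(CP10K + 0.1) scale as the DMBMT pair minus the DM pair, and a gene was called at a log2 difference beyond 1 either way and an adjusted p under 0.05 (limma, Benjamini-Hochberg over all genes tested, 2 libraries against 2). Of 7345 genes, 59 were called higher in the DMBMT pair (0.803%) and 66 lower (0.899%). Most calls within a cluster were in Mono, where 273 of 6878 genes were called higher (3.97%) and 247 lower (3.59%). In Res_mLC 17 of 7343 genes were called higher (0.232%) and 12 lower (0.163%). Without the Res_mLC cells that held a Y-linked UMI, 4 genes were called there in place of 29: Rpl3, Rpl29 and Oaz1 higher and Iigp1 lower. The differences of the genes named for this cluster moved little. Serpina3g went from -2.01 to -1.95 and Rpl11 from 1.85 to 1.89, at adjusted p of 0.0521 and 0.0536 (limma). Without DMBMT, 4 genes were called as well. In Mrc1_Mac no gene of 7111 was called (0%), although 376 had an unadjusted p under 0.05, and voom, limma's weighting of summed counts, called 44. The pair difference in Res_mLC minus that in Mono, an interaction, was called for 31 of 7347 genes in the positive (0.422%) and 54 in the negative direction (0.735%). Nothing in the files says that the libraries of a pair come from separate mice, so the p-values measure the spread between libraries, which may be technical.

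Genes that interferon-γ induces were lower in the DMBMT pair. Across the 3 clusters 5 of 21 tested members of the list were called lower and none higher, with a median log2 difference of -0.78 beside 0.02 for all genes. The share of all genes called lower was 0.899%. Without DM2 3 members were called lower, and without DMBMT 9. The 5 were Serpina3g, which inhibits serine proteases inside cells, the GTPase Iigp1, Gbp5, Gbp2 and Socs1. Serpina3g in Mono stood at 4.56 CP10K in DM1 and 4.22 in DM2, and at 0.497 in DMBMT and 0.441 in DMBMTT. In Res_mLC it stood at 0.896 and 1.13 CP10K in the DM pair and at 0.141 and 0.21 in the DMBMT pair, and in Mrc1_Mac at 1.36 and 0.913 against 0.366 and 0.704. The pairs did not overlap in any of the 3 clusters, and Serpina3g fell by 1.99 ± 0.21 (SE) on the log2 scale over the clusters (adjusted p = 0.000424, limma). The corresponding differences over the 3 clusters were -1.79 for Iigp1, -1.41 for Gbp5, -1.16 for Gbp2 and -1.01 for Socs1 (adjusted p between 0.00119 and 0.0224, limma). In Mrc1_Mac Socs1 did not separate the pairs, at 0.719 and 0.995 CP10K in the DM pair against 0.779 and 0.746.

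To look for interferon-related motifs, the 250 bases before the start of transcription were read from RefSeq (GRCm38.p6) for Serpina3g, Socs1, Gbp2 and Gbp5. Iigp1, the remaining called member, is not shown here. GAS and ISRE are motifs known from the promoters of interferon-induced genes, and interferon regulatory factors bind ISRE. Matches on either strand to GAS (TTCNNNGAA) or ISRE (GAAA, any 2 bases and GAAA again) are in capitals, and each stretch reads 5′ to 3′ on the strand of the gene.
Serpina3g: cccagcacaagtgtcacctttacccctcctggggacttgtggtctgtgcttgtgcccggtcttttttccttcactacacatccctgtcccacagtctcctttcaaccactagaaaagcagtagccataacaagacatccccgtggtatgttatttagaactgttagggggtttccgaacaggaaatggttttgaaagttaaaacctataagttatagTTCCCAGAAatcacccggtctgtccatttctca
Socs1: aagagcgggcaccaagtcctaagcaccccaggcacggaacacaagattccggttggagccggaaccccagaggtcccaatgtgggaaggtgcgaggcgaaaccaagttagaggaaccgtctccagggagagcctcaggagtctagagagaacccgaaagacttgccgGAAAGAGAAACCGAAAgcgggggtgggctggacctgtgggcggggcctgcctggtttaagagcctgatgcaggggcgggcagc
Gbp2: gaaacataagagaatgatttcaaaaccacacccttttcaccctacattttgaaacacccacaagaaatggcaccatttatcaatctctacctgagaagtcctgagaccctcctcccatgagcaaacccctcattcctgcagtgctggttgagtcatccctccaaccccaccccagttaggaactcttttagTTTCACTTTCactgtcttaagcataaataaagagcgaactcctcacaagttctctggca
Gbp5: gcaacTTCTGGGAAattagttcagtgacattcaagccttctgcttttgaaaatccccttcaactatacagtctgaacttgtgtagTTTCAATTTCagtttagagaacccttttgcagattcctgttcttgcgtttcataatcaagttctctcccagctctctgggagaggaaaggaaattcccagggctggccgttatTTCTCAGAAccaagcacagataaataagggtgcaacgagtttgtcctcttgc
The stretch of Serpina3g (chr12:104235897-104236146, + strand) holds 1 GAS match that begins 33 bases before the start. That of Socs1 (chr16:10785537-10785786, - strand) holds 2 overlapping ISRE matches that begin 83 and 77 bases before it, and that of Gbp2 (chr3:142620413-142620662, + strand) 1 ISRE match at 59 bases. Gbp5 (chr3:142496684-142496933, + strand) has GAS matches at 245 and 52 bases and an ISRE match at 165 bases before the start. Of the 27025 genes in the sequence table, 8.13% had a GAS and 3.46% an ISRE match in this window. Among the 20 interferon-γ list members in the table, 9 had a GAS (45%) and 11 an ISRE match (55%). Of the 66 genes called lower over the 3 clusters, 58 were in the table, and 7 of them (12.1%) had a GAS and 9 (15.5%) an ISRE match. Of the 59 genes called higher, 44 were in the table, and 2 (4.55%) had each motif, beside 6.89% (GAS) and 3.69% (ISRE) of 5965 tested genes. In Mono the shares lay closer together, with an ISRE match in 7.65% of the genes called lower, 5.96% of those called higher and 3.96% of those tested, and a GAS match in 9.18%, 5.5% and 7.16%. A match is a run of letters and not evidence of binding.

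Within single clusters, most interferon-γ targets were called in Mono. There 11 of 20 list members were called lower and none higher, at a median of -1.37 beside 0.11 for all genes. The share of all genes called lower there was 3.59%. Cxcl9 stood at 26.1 CP10K in DM1 and 19.6 in DM2 and at 0.975 in DMBMT and 2.76 in DMBMTT, a log2 difference of -3.70 ± 0.42 (adjusted p = 0.00276, limma). Both libraries of the DM pair lay far above both of the DMBMT pair. Gbp2 stood at 10.9 and 12.5 CP10K in the DM pair against 4.87 and 2.62 in the DMBMT pair. Socs1 levels were 2.94 and 2.05 CP10K against 0.603 and 0.407, and those of Cd274, the ligand of the inhibitory receptor PD-1, were 3.17 and 2.96 against 1.49 and 0.539. Other called members included Serpina3g, Upp1, Iigp1, Batf2, Gbp5 and Irf1. Leaving out 1 library in turn left 7 to 12 members called lower in Mono and none higher. Fits without 1 library leave 1 pair with a single library, which is assumed to vary like the other pair. The interaction, Res_mLC minus Mono, was called for 1 of 21 members (Upp1, positive) at a median of 0.36, or for 5 without DMBMT and 3 without DM2, so that for most members the clusters were not shown to differ.

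In Res_mLC the same list had a median of -0.91 beside -0.07 for all genes, with Serpina3g and Iigp1 called lower (2 of 16, or 7 of 16 by voom) and none higher. Of all 7343 genes tested there, limma called 12 lower and voom 349. Iigp1 stood at 0.748 and 0.78 CP10K in the DM pair and at 0.0636 and 0.0803 in the DMBMT pair. Without cells that held a Y-linked UMI, 1 of 16 members was called and the median was -0.87. In Mrc1_Mac none of 20 members was called by limma or by voom, 5 had an unadjusted p under 0.05, and the median was -0.61 beside 0.07. Cxcl9 was lower there in both libraries of the DMBMT pair, at 7.09 and 6.36 CP10K against 0.707 and 2.46, without passing the test (adjusted p = 0.866, limma). Tap1, which pumps peptides for MHC class I, was 4.76 CP10K in the Mrc1_Mac cells of DMBMT and 1.49 in those of DMBMTT, on either side of the DM pair at 2.34 and 3.01.

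**Figure D2:**
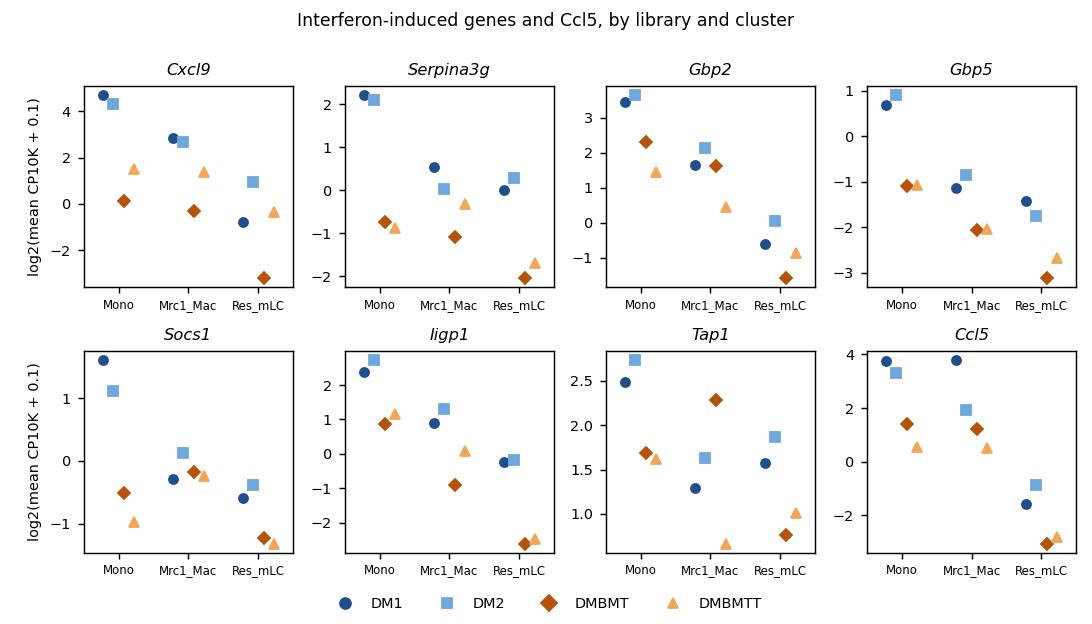
Levels on the log2(mean CP10K + 0.1) scale (y axis) of 7 interferon-induced genes and Ccl5 in Mono, Mrc1_Mac and Res_mLC (x axis), with 1 point per library (circles DM1, squares DM2, diamonds DMBMT, triangles DMBMTT). In Mono all 8 genes are higher in both blue libraries (the DM pair) than in both orange ones (the DMBMT pair), whereas in Mrc1_Mac the points of Socs1 and Tap1 mix.

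Of the genes that type I interferons induce, 4 of 40 were called lower over the 3 clusters (Ifi205, Slfn4, Slfn1 and Zbp1) and none higher, with a median of -0.25, whereas voom called 2 higher and none lower, and 2 to 7 were called lower when 1 library was left out, with 7 without DMBMTT. In Mono 2 of 40 members, Ifit3 and Ifit3b, were called higher and none lower, a share near the 3.97% of all genes. These counts changed when DMBMT was left out, as did the count of all genes called in Mono. Ifit3 stood at 0.453 and 0.467 CP10K in the DM pair and at 1.8 and 1.17 in the DMBMT pair. Ifit3 and Ifit3b are near-identical copies whose reads may have been split between them. In Res_mLC the type I list lay lower in the DMBMT pair, at a median of -0.72 beside -0.07 for all genes. There 32 of 37 members were below 0, and Ifi27l2a alone was called, lower. An unadjusted p under 0.05 was found for 20 of the 37, beside 1067 of all 7343 genes. In the signalling machinery, Jak2 was lower in Mono, at 4.34 and 5.63 CP10K in the DM pair against 1.63 and 0.94 (log2 difference -1.91 ± 0.27, adjusted p = 0.00169, limma). Ifngr1, the ligand-binding chain of the interferon-γ receptor, went the other way in Mono, at 1.7 and 1.97 CP10K against 6.67 and 5.14 (1.63 ± 0.22, adjusted p = 0.00158, limma). MHC class I genes had medians of -0.56 in Mono and -0.53 in Res_mLC, with 2 of 18 called lower in Mono (Psme2 and Tapbp) and 0 of 18 by limma in Res_mLC (9 at an unadjusted p under 0.05, and 3 lower by voom). Over the 3 clusters 2 of 18 were called lower, the class I genes H2-Q7 and H2-Q6, which resemble each other in sequence. MHC class II genes, which served to sort the cells, had medians of -0.15 in Mono, -0.06 in Mrc1_Mac and 0.14 in Res_mLC, and 0 of 7, 0 of 7 and 0 of 10 were called by limma or voom (1, 0 and 1 at an unadjusted p under 0.05). H2-Aa ranged from 90 to 125 CP10K across the Mono profiles of the 4 libraries, without order by pair.

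Genes outside these lists that were higher in the DM pair in every cluster included several mediators that myeloid cells release. The chemokine Ccl5 stood in Mono at 13.3 and 9.89 CP10K in the DM pair and at 2.52 and 1.38 in the DMBMT pair, and over the 3 clusters its log2 difference was -2.09 ± 0.23 (adjusted p = 0.000482, limma). T cells express Ccl5 as well. The other 12 T cell markers in the table summed to 0.104 and 0.144 CP10K in Mono in the DM pair and 0.234 and 0.161 in the DMBMT pair. In the other clusters they summed to 0.102 to 0.543 CP10K. In 5 of the 12 profiles, all of the DMBMT pair and of 45 to 82 cells, 7 or more of the 12 were at 0. Single markers differed in Mono: Trac was at 0.0469 and 0.0223 CP10K in the DM pair against 0 and 0, and Cd2 at 0.00614 and 0.0327 against 0.176 and 0.0632. The part of T cell transcripts in the Ccl5 difference was not tested. Ccl17, a ligand of the T cell receptor Ccr4, had the largest fall among the called genes over the 3 clusters (-2.65 ± 0.28, adjusted p = 0.000424, limma), although it was not called in a single cluster. In Mono it stood at 13 and 9.74 CP10K in the DM pair, at 3.72 in DMBMT and at 0.201 in DMBMTT. Edn1, the precursor of the vessel-constricting peptide endothelin-1, was at 1.8 and 1.59 CP10K in Mono against 0.0853 and 0.0071 (log2 difference over the clusters -2.20 ± 0.33, adjusted p = 0.00374, limma). AW112010, an interferon-inducible transcript, was at 24 and 20.2 CP10K in Mono against 6.08 and 4.63, and at 25.1 and 21.5 against 3.85 and 7.61 in Mrc1_Mac.

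Ass1, which makes the arginine precursor argininosuccinate, was at 11.1 and 5.35 CP10K in Mono in the DM pair and at 1.43 and 0.789 in the DMBMT pair, and at 2.01 and 1.25 against 0.259 and 0.39 in Res_mLC. Over the 3 clusters it fell by 1.92 ± 0.25 (adjusted p = 0.00159, limma). The remaining genes in this group were Cd69, an early activation marker, the survival gene Bcl2a1a, Hivep3, the protein C receptor Procr and Dram1, with differences of -1.55 to -1.75. Bcl2a1a has near-identical neighbours, so its reads may belong in part to them. Among the inflammatory cytokine genes, Il1b was called lower in Mono at 19.5 and 16.3 CP10K against 5.56 and 4.69 (-1.79 ± 0.22, adjusted p = 0.000777, limma), together with the NF-κB inhibitor Tnfaip3. The chemokine Ccl12 was called higher, and 12 of the 15 members tested were not called. Of all genes tested in Mono, 3.59% were called lower and 3.97% higher. The counts of members called changed when DMBMT was left out, as did the count of all genes called.

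**Figure D3:**
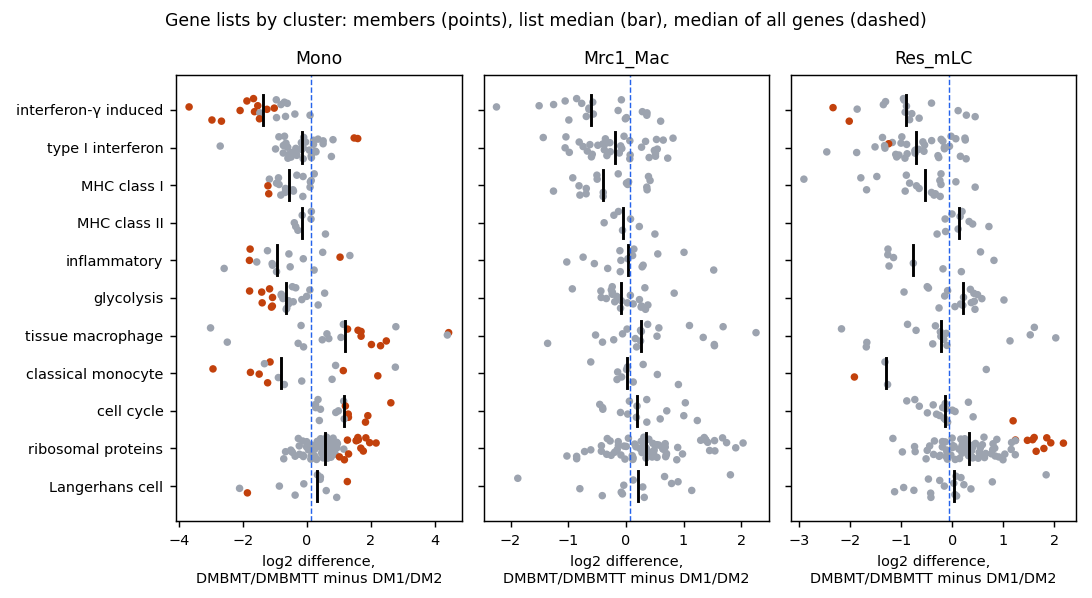
Log2 differences between the pairs (x axis, DMBMT/DMBMTT minus DM1/DM2) of the tested members of 11 gene lists (y axis) in Mono, Mrc1_Mac and Res_mLC, with called genes in orange, others in grey, a black bar at the list's median and a dashed line at the median of all genes. The interferon-γ list lies left of the dashed line in all 3 panels, at medians of -1.37, -0.61 and -0.91, whereas glycolysis genes lie left of it in Mono (-0.65) and right of it in Res_mLC (0.21).

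In Mono, most genes of the tissue macrophage list were higher in the DMBMT pair. Of 20 tested genes of this list, 8 were called higher and none lower, with a median of 1.20 beside 0.11 for all genes. Among all genes 3.97% were called higher. In the list 15 genes lay above 0 and 5 below, the lowest at -3.025. Ccl24, a marker of Mrc1_Mac, was at 9.04 and 20.8 CP10K in the DM pair against 9.82 and 0.191, and was not called. Apoe, which carries lipids out of macrophages, stood at 0.457 and 1.03 CP10K in the DM pair and at 22.9 and 12.7 in the DMBMT pair, the largest difference in this cluster (4.43 ± 0.38, adjusted p = 0.000517, limma). Trem2, a lipid-sensing receptor, was at 0.756 and 0.983 CP10K against 4.82 and 5.79. The complement gene C1qb was at 8.65 and 11.3 CP10K against 27.7 and 32.7, and C1qa and C1qc, which encode the other chains of C1q, were called higher with it. Mgl2, a lectin of dermal dendritic cells and macrophages, was at 0.858 and 1.53 CP10K against 5 and 7.33, and its relative Clec10a and the transcription factor Maf were also called higher. Mrc1 was not called: it stood at 1.43 CP10K in DM1, but at 6.88 in DM2, 6.31 in DMBMT and 7.95 in DMBMTT. Outside the list, Tmem176b (0.288 and 0.506 against 3.65 and 4.27 CP10K), the growth factor Igf1 (0.0784 and 0.164 against 1.52 and 1.47), the haemoglobin scavenger receptor Cd163 (0 and 0.0832 against 1.12 and 0.659) and the carbonyl reductase Cbr2 (0.016 and 0.273 against 1.09 and 2.38) had the next largest differences, at 2.83 to 3.06. Without 1 library in turn, 7 to 12 of the macrophage list were called higher and up to 3 lower.

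Classical monocyte genes went both ways in Mono, with 5 of 14 called lower in the DMBMT pair (among them Chil3, Vcan, Clec4e and Ly6c2) and 2 higher (F13a1 and Ccr2). The shares of all genes were 3.59% called lower and 3.97% called higher. Chil3, a chitinase-like protein of monocytes and neutrophils, stood at 15.8 and 11.2 CP10K in the DM pair and at 2.7 and 0.975 in the DMBMT pair (-2.95 ± 0.42, adjusted p = 0.00636, limma). Ly6c2 was at 12.8 and 14.2 CP10K against 8.69 and 4.07. Ccr2, the receptor through which monocytes leave the marrow, was higher in the DMBMT pair, at 1.02 and 0.984 CP10K against 2.25 and 2.39. Without DM2, 1 monocyte gene was called lower and 3 higher, and without DM1 2 lower and 3 higher. The authors clustered the cells of all 4 libraries on such genes, so these values also describe which cells were placed in Mono. The latent time that the authors derived from RNA velocity, a fraction that grows along the inferred path of differentiation, had medians of 0.207 and 0.244 in the Mono cells of the DM pair and 0.307 and 0.313 in those of the DMBMT pair. In Res_mLC the medians were 0.518 and 0.517 against 0.638 and 0.641. The part of latent time in the differences between the pairs was not tested. Neutrophil markers moved with the monocyte genes in Mono: the 9 markers in the table summed to 4.21 and 4.01 CP10K in the DM pair and to 0.696 and 1.08 in the DMBMT pair, and S100a8 was called lower. The 3 B cell markers in the table summed to 0.186 and 0.383 CP10K in Mono in the DM pair and to 1.36 and 1.4 in the DMBMT pair, with Ighm and Cd79b called higher. Keratinocyte markers summed to 0.716 and 2.27 CP10K against 0.607 and 0.834, and the 1 erythroid marker in the table was at 0 in Mono in the 4 libraries. Their part in the results was not tested.

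**Figure D4:**
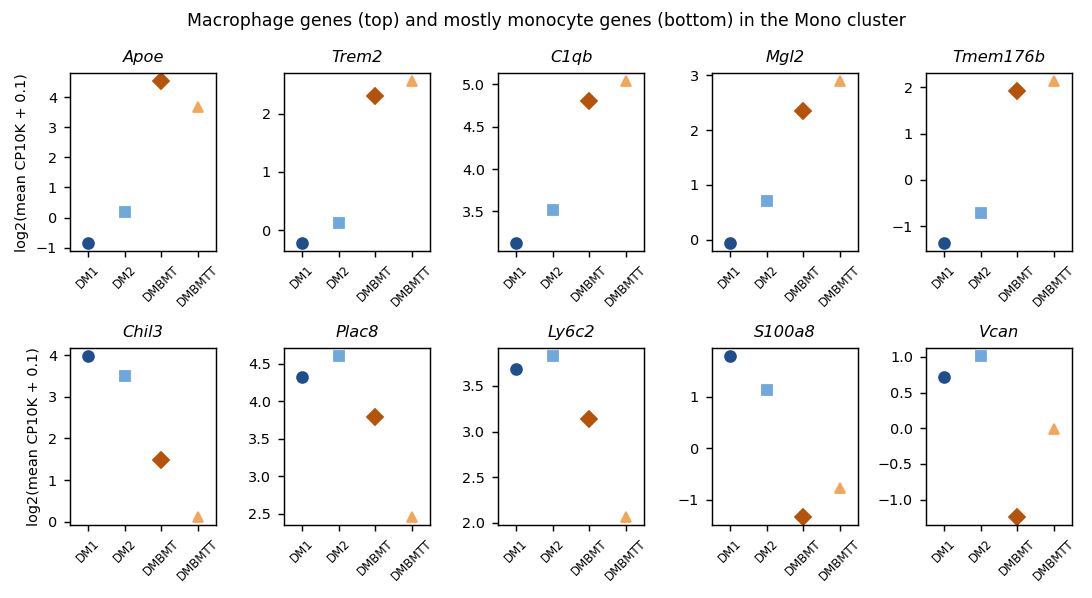
Levels on the log2(mean CP10K + 0.1) scale (y axis) of 5 genes higher in the DMBMT pair (top row) and 5 genes lower in it (bottom row) in the Mono cells of each library (x axis), with 1 point per library. Apoe stands at 0.457 and 1.03 CP10K in DM1 and DM2 and at 22.9 and 12.7 in DMBMT and DMBMTT. The pairs do not overlap for any of the 10 genes, which were picked for display, and Plac8 was not called. Of the 14 monocyte genes tested, 5 lay above 0, among them F13a1 and Ccr2, and these are not shown.

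Cell cycle genes were also higher in the Mono cells of the DMBMT pair. All 15 tested members lay above 0, at a median of 1.15, and 6 were called higher, beside 3.97% of all genes. The filter of 0.1 CP10K was on the mean of the 4 libraries. Called members such as Birc5, Cdk1 and Tyms passed it only through the DMBMT pair, which favours differences above 0, so these counts are partly set by the filter. Stmn1, which destabilises microtubules, stood at 0.0506 and 0.133 CP10K in the DM pair against 0.671 and 1.63, and the survivin gene Birc5 at 0.0113 and 0.0599 against 0.309 and 0.509. The proliferation marker Mki67 did not separate the pairs, at 0.366 and 0.385 CP10K against 0.288 and 0.837. The median was 0.55 without DMBMTT, with 4 of 11 called, and 3 of 16 were called without DM1 or without DM2. In Res_mLC the same list had a median of -0.15, with only H2afz called higher by limma among 18 members, and not without the cells that held a Y-linked UMI.

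The difference in glycolysis genes depended on the cluster. In Mono 7 of 22 were called lower in the DMBMT pair, beside 3.59% of all genes, and none higher, at a median of -0.65. Without DM2 3 were called lower, without DM1 4, and without DMBMTT 4 lower and 1 higher. The phosphofructokinase Pfkl stood at 0.59 and 0.676 CP10K against 0.149 and 0.0769, and the phosphoglycerate kinase Pgk1 at 5.24 and 5.96 against 3.04 and 2.19. In Res_mLC none of 18 was called by limma (6 at an unadjusted p under 0.05, and 1 higher and 1 lower by voom), and the median was 0.21. The interaction, Res_mLC minus Mono, was called positive for 8 of 22 members and negative for none, with a median of 0.95 beside -0.16 for all genes. It was called positive for 0.422% of all genes. The 8 were Pfkl, Aldoa, Tpi1, Pgk1, Pgam1, Eno1 and Pkm, which are enzymes of the pathway, and Ndrg1, which hypoxia induces. Pgk1 in Res_mLC was at 2.94 and 2.94 CP10K in the DM pair and 3.89 and 3.05 in the DMBMT pair, and its interaction was 1.30 ± 0.21 (adjusted p = 0.0163, limma). Leaving out 1 library in turn left 3 to 10 members called positive and none negative, the fewest without DM1. Runx3, a transcription factor of the Langerhans cell programme, showed the same form: it was at 6.13 and 6.62 CP10K in Mono against 1.72 and 1.62, but at 10.8 and 8.93 against 11 and 9.41 in Res_mLC (interaction 1.92 ± 0.21, adjusted p = 0.00183, limma).

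Apoe had the largest negative interaction among the called genes. In Res_mLC it was at 0.0259 and 0.118 CP10K in the DM pair and 0.744 and 0.17 in the DMBMT pair, and its interaction was -2.91 ± 0.32 (adjusted p = 0.00183, limma). Tmem176b had an interaction of -2.69. Of the 85 genes called for the interaction, 11 passed the filter of 0.1 CP10K in Mono and not in Res_mLC, so that their Res_mLC difference lay near 0 by construction or rested on few transcripts and the interaction largely restates the one in Mono. They include Cd163, Igf1 and Lifr among the negative and Edn1, Gm15056, Saa3 and Upp1 among the positive interactions. Of 19 tested macrophage genes 6 had an interaction called negative (Mgl2, Mrc1, C1qa, C1qb, C1qc and Apoe) and none one called positive, with a median of -1.57. The share of all genes called negative was 0.735%. The largest positive interaction was that of the angiogenic factor Pgf (3.11 ± 0.48, adjusted p = 0.0147, limma). Without the cells that held a Y-linked UMI it was 2.78 and not called (adjusted p = 0.058, limma). The uridine phosphorylase gene Upp1 was at 6.67 and 3.61 CP10K in Mono in the DM pair against 1.07 and 0.418, and at 0.0412 and 0.0477 against 0.0968 and 0.00645 in Res_mLC, where its levels are near those of single transcripts. Gm15056 was listed at 0 in both libraries of the DMBMT pair in Mono and at 0.336 and 0.951 CP10K in the DM pair. Against the floor of 3 counts over the DMBMT pair it was at least 40-fold lower there.

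Of the Langerhans cell genes, 0 of 17 were called by limma in Res_mLC (5 at an unadjusted p under 0.05, and 2 lower by voom), and the median was 0.03. Epcam stood at 26 and 18.7 CP10K in the DM pair and at 22.3 and 24.1 in the DMBMT pair, with the groups overlapping. The langerin gene Cd207 was at 1.31 CP10K in DM1, 5.5 in DM2, 10.4 in DMBMT and 9.5 in DMBMTT, lowest in DM1 and without a call. The called genes with the largest difference in each direction in Res_mLC were Hpgd, which inactivates prostaglandins (0.107 and 0.201 CP10K against 1.48 and 0.795, 2.25 ± 0.33, adjusted p = 0.0184, limma), and the DNase gene Dnase1l3 (1.63 and 2.43 against 0.126 and 0.392, -2.65 ± 0.36, adjusted p = 0.0184, limma). Without the cells that held a Y-linked UMI their differences were 2.07 and -2.80, and their adjusted p were 0.0563 and 0.0536 (limma). Gm4951 was called lower as well, at 0.823 and 0.53 CP10K against 0.00798 and 0.144. As a share of each library's donor cells, Res_mLC made up 4.08% in DM1 (exact 95% interval 3.35 to 4.92%), 14% in DM2 (13.3 to 14.8%), 22.6% in DMBMT (17.3 to 28.6%) and 44.5% in DMBMTT (40.8 to 48.2%). Both libraries of the DMBMT pair lay above both of the DM pair. The exact two-sided permutation test gave p = 0.33, the smallest p that 2 libraries against 2 allow. Mono made up 6.53 to 36.3% and Mrc1_Mac 10.2 to 31% of the libraries, with the pairs overlapping (p = 0.67 for each, exact two-sided permutation test).

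The genes that were higher in the DMBMT pair in each cluster were in part of another kind. Of 71 tested ribosomal protein genes 12 were called higher over the 3 clusters, beside 0.803% of all genes, and none lower, at a median of 0.42. Rpl3 stood in Mono at 1.69 and 1.45 CP10K in the DM pair against 8.21 and 6.58 in the DMBMT pair, in Mrc1_Mac at 1.51 and 1.17 against 5 and 6.58, and in Res_mLC at 2.37 and 2.14 against 13.6 and 8.13. Over the clusters its difference was 2.12 ± 0.20 (adjusted p = 0.000372, limma). Rpl29, Rpl7a, Rpl11, Rps13 and Rpl18 followed at 1.52 to 1.88. The ornithine decarboxylase antizyme Oaz1 (1.70) and cyclophilin A, Ppia (1.54), which belong to other pathways, moved alike. Ppia was at 5.41 and 3.02 CP10K in Mono against 15.1 and 10.2. The remaining ribosomal genes spread around a smaller difference, with 54 of 71 above 0. In Mono 13 of 71 were called higher and in Res_mLC 9 of 73, or 2 of 73 without the cells that held a Y-linked UMI.

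Many of these genes have processed pseudogenes, and how reads that match both gene and pseudogene were assigned depends on the transcripts in the index used for counting. For each gene, the percentage of 31-base stretches of its protein-coding transcripts (GENCODE vM39) that also occur in annotated pseudogene transcripts was therefore computed. It was 66.5% for Rpl3, 58.6% for Rpl7a, 54% for Oaz1, 31.9% for Rpl11, 24.9% for Ppia and 11.3% for Rpl29. Of the 53 genes called higher over the 3 clusters that had a value, 11 had a share of 20% or more (20.8%), as did 4 of 65 called lower (6.15%) and 175 of 7059 tested (2.48%). Median differences were 0.00 in the 2939 genes without such stretches, 0.10 in the 367 genes at 10 to 25%, 0.21 in the 91 at 25 to 50% and 0.34 in the 23 above 50%. Within the ribosomal genes 28 of all 71 and 6 of the 12 called had a share of 20% or more. Whether the libraries of the pairs were counted against the same index is not given in the sources used here, and its part in these differences was not tested.

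**Figure D5:**
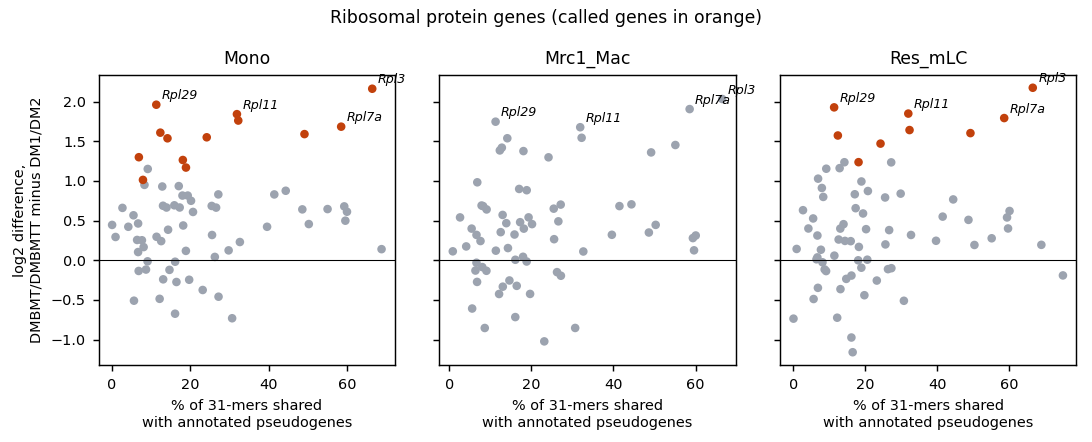
Log2 difference between the pairs (y axis, DMBMT/DMBMTT minus DM1/DM2) of each ribosomal protein gene against the percentage of its 31-base stretches that also occur in annotated pseudogene transcripts (x axis), in Mono, Mrc1_Mac and Res_mLC, with called genes in orange. Rpl3 stands at the top in each panel, above 2 on the log2 scale, with 66.5% of its stretches shared, while other genes with high shares lie near 0.

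Genes of other kinds were also higher in the DMBMT pair in each cluster. Apoe had the largest difference over the 3 clusters (2.74 ± 0.28, adjusted p = 0.000424, limma), and in Mrc1_Mac it stood at 1.87 and 1.16 CP10K in the DM pair against 8.53 and 6.48. Igfbp4, which binds insulin-like growth factors, was at 0.0459 and 0.0993 CP10K in Mono against 0.793 and 1.2 (over the clusters 1.78 ± 0.27, adjusted p = 0.00429, limma). Hpgd (1.68) and the membrane protein gene Plp2 (1.55) completed the named genes. In Mrc1_Mac, where nothing passed the test, the smallest p belonged to Tmem176b, at 0.203 and 0.203 CP10K against 2.32 and 3.63 (3.31 ± 0.38, adjusted p = 0.145, limma). Below it among positive differences were Apoe, Rpl3, Rpl7a and Egr1, and among negative differences Clec1b, AW112010, Il18bp, Cxcl9 and Fabp5. These 10 genes were picked by the smallest p in each direction, which favours pairs that do not overlap. None of them was called. Immediate early genes had medians of 0.24 in Mono, 0.43 in Mrc1_Mac and -0.36 in Res_mLC, with 4 of 16 called higher and 3 lower in Mono, and heat shock genes had none of 10 called in a cluster by limma (2 in Mono, 1 in Mrc1_Mac and 1 in Res_mLC at an unadjusted p under 0.05, and 1 in Res_mLC by voom). Of the other lists, haem, iron and antioxidant genes had 3 of 16 called each way in Mono, lipid and lysosome genes 2 of 15 higher and 1 lower, and respiratory chain genes 4 of 75 higher and none lower. These counts hold for Mono, where 3.97% of all genes tested were called higher and 3.59% lower. The respiratory chain count is near that share, and the median of that list was -0.01.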

How the data were processed

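The deposited expression table of donor cells holds natural log values, ln(1 + CP10K), where CP10K stands for UMIs per 10000 of a cell's total. The labels list kallisto, bustools, Seurat and the build GRCm38; the index and annotation are not given in the sources used here. Undoing the log returned whole UMI numbers for 100% of 28329689 values (tolerance 0.001). The table lists 15155 genes, which cover 91.3% of the UMIs of the median cell. The mitochondrial percent and the latent time, a fraction, were used as deposited by the authors, as were their cluster names. The authors state that they removed doublets with DoubletFinder and cells below 500 genes or above 20% mitochondrial UMIs, although 9 to 29 cells per library are below the first limit and 6 to 148 above the second. No doublet caller was run and no cell was removed.

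For each library and cluster, CP10K were averaged over cells, which gave 45 to 2602 cells per average. limma 3.58.1 (R 4.3.3, statmod 1.5.0, trend and robust) compared 2 libraries with 2 on the log2 scale after adding 0.1, for genes whose mean reached 0.1 CP10K, with Benjamini-Hochberg adjustment. Alternatives were voom on recovered counts, pseudocounts of 0.01 and 1, no filter or one at 1 CP10K, median-ratio scaling, equal cell numbers, the authors' cell filter and leaving out each library. Shares were compared by exact permutation (SciPy 1.17.1, Python 3.11.15). The text names the 12 called genes (5 for 1 cluster or the interaction) with the largest difference each way whose pairs did not overlap, filled up by p where fewer were called, and list members. Members, lists and rules were chosen with earlier results of these data known. Total UMIs were 34011138 (DM1), 64343817 (DM2), 2982296 (DMBMT) and 9405095 (DMBMTT), so low genes are least precise in DMBMT.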

Additional observations from a re-analysis of the deposited data

Results flagged for a closer look

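The pair difference itself differed between Res_mLC and Mono, by a test of the interaction in limma, for 85 genes. Values are log2 differences between the pairs (DMBMT/DMBMTT minus DM1/DM2) in Res_mLC minus those in Mono, and each gene below passed at an adjusted p under 0.05. Of the 85 genes, 74 passed the filter of 0.1 CP10K in both clusters. Positive values among these belonged to Pgf (3.11), Runx3 (1.92), the superoxide dismutase gene Sod2 (1.91), the cytokine gene Tnf (1.79) and the ferritin gene Fth1 (1.01). The glycolysis list gave Pfkl (1.71), Pgam1 (1.34), Tpi1 (1.30), Pgk1 (1.30), Aldoa (1.23), Eno1 (1.18), Ndrg1 (1.17) and Pkm (1.02).

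Negative values among them belonged to the macrophage genes Apoe (-2.91), Mgl2 (-2.40), Mrc1 (-2.01), C1qa (-1.97), C1qb (-1.83) and C1qc (-1.81), and to Tmem176b (-2.69), Fosb (-2.55), Ifngr1 (-1.87), Lgmn (-1.57) and Hpgds (-1.23). The cell cycle genes Birc5 (-2.15), Top2a (-2.03) and Mcm3 (-1.84) were negative as well. The other 11 genes passed the filter in Mono and not in Res_mLC, and their values largely restate the difference in Mono. They include Edn1 (2.78), Gm15056 (2.74), Saa3 (2.70), Upp1 (2.69), Cd163 (-2.83), Igf1 (-2.77), Lifr (-2.72) and Lyz1 (-2.57). Without cells that held a Y-linked UMI, 78 genes were called, 72 of them among the 85. Pgf was not called then (2.78, adjusted p = 0.058, limma).

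Y-linked transcripts, outside the comparisons, were found in Res_mLC cells sorted as female donor cells: 23 UMIs in 7 of 51 cells of DMBMT and 19 UMIs in 6 of 320 cells of DMBMTT. The Mono cells of the 4 libraries held none, in 938 cells. In DM2, 8 of 1175 Res_mLC and 14 of 2602 Mrc1_Mac cells held such a transcript, and in DM1 2 of 403 Mrc1_Mac cells did.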

How the results depend on the processing

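No paired analysis was possible because the pairs share no replicate numbers. The numbers of called genes depended on the filter, the pseudocount and single libraries. With a pseudocount of 1, 24 genes were called over the 3 clusters, 96 in Mono, 15 in Res_mLC and 47 for the interaction. Without a filter on low levels the counts were 0, 220, 0 and 0, and with a filter at 1 CP10K 56 over the clusters, 178 in Mono and 5 in Mrc1_Mac. voom called 219 over the clusters, 44 in Mrc1_Mac, 449 in Res_mLC and 591 for the interaction. Equal numbers of cells gave 18 in Mrc1_Mac and 43 for the interaction. The authors' stated cell filter gave 75 in Res_mLC and 202 for the interaction. Chosen after seeing the data, cells of 2000 UMIs or more gave 152 in Res_mLC and 366 for the interaction, cells without a Y-linked UMI gave 4 in Res_mLC, and the mean of Mono and Res_mLC gave 229. Leaving out 1 library in turn gave 113 to 261 genes over the clusters, 260 to 897 in Mono, 5 to 1797 in Mrc1_Mac, 4 to 273 in Res_mLC and 52 to 575 for the interaction. The most came without DMBMTT, except in Mono, where they came without DMBMT. The cause was not tested.

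Of 890 refits of the named genes, none reversed its sign, 718 stayed on the same side of the threshold, 132 lost the call and 40 gained it, all 40 in Mrc1_Mac. Of the 132, 44 came without a filter. The named genes were picked for pairs that did not overlap. That choice by itself leaves little room for a reversed sign, most of all when a library is left out, so the lack of reversals is no separate support. The differences in share kept their sign, at 0.717 to 28.2 percentage points for Mono, -16 to -0.637 for Mrc1_Mac and 13.5 to 35.5 for Res_mLC when 1 library was left out. Depth limits the Mrc1_Mac cells of DMBMT most, at 45 cells and a median of 2214 UMIs, and no treatment effect can be read from these pairs.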
